A study of Mus musculus with 6 samples.

Results

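Amino acid transporters are the membrane proteins through which macrophages take up, exchange and recycle amino acids. The genes described here are 9 members of this group, Slc3a2, Slc7a2, Slc7a5, Slc7a7, Slc7a8, Slc1a5, Slc38a1, Slc38a2 and Slc15a3, found by their gene symbols in the table of expected counts. All 9 were present among the 15168 genes of that table, and all 9 had enough counts to be tested among 11878 genes. The sequenced RNA came from macrophages sorted from full-thickness wounds on the back of female wild-type C57BL6/J mice on Day 3 after wounding. There were 3 samples from young mice, labelled 12 weeks, and 3 from aged mice, labelled 24 months. The methods give a range of ages for each group, with the labelled age at its upper end. The labels name no transgene and no treatment that differed between the ages, and the methods give isoflurane anaesthesia and buprenorphine for pain relief to the wounded mice. Each age had 1 sample in each of the sets A, B and C, and the labels do not say what a set shares or whether a sample pools animals. P-values therefore measure the spread between these samples. The labels give the sort as F4/80+ CD64+, and the methods add CD45 and CD11b and name no step that removed Ly6G+ neutrophils. Mice were kept at 2 sites, and the site of each sample is not given.

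Heterodimeric transporters are built from a light chain of the SLC7 family, which carries the amino acid, and the heavy chain CD98, encoded by Slc3a2, which brings it to the cell surface. Other carriers work alone, such as the sodium-coupled glutamine and alanine carriers of the SLC38 family and the cationic carrier encoded by Slc7a2. In macrophages, arginine taken up by these routes feeds nitric oxide and polyamine synthesis, and glutamine and leucine feed growth and the mTORC1 kinase. When amino acids run short, the kinase GCN2 raises the transcription factor ATF4, which induces several transporters and the enzymes of amino acid synthesis.

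Of the 9 transporter genes, 3 rose with age and 0 fell. Slc38a2, Slc7a8 and Slc15a3 were each more than 2-fold higher in aged than in young macrophages. The other 6 did not pass the test of aged against young (edgeR quasi-likelihood test on the whole table, Benjamini-Hochberg adjusted p under 0.05), and 0 of the 9 were lower at an unadjusted p-value under 0.05 or in DESeq2 and limma-voom. Over all tested genes, 9.73% passed as higher and 7.97% as lower in aged macrophages, and 4.59% and 4.2% passed with a change of more than 2-fold in the same direction. In 4 of the 9 genes, the 3 that rose and Slc3a2, every aged sample lay above every young sample, and in 0 did every aged sample lie below. The same held for 19.2% and 19% of all tested genes. The median log2 fold change of the 9 genes was 0.55, against -0.02 over all tested genes. Without young A, 5 of the 9 passed as higher (with Slc7a2 and Slc38a1) and the median was 1.16, in a fit in which 1574 of 12138 genes passed as higher, and without young C Slc7a8 alone passed, in a fit in which 151 of 12219 genes passed as higher. In limma-voom 6 of the 9 passed as higher, with 1933 of 11878 genes in all. Because the sequenced material was bulk RNA, fewer cells of a type and less RNA per cell cannot be told apart.

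**Figure D1:**
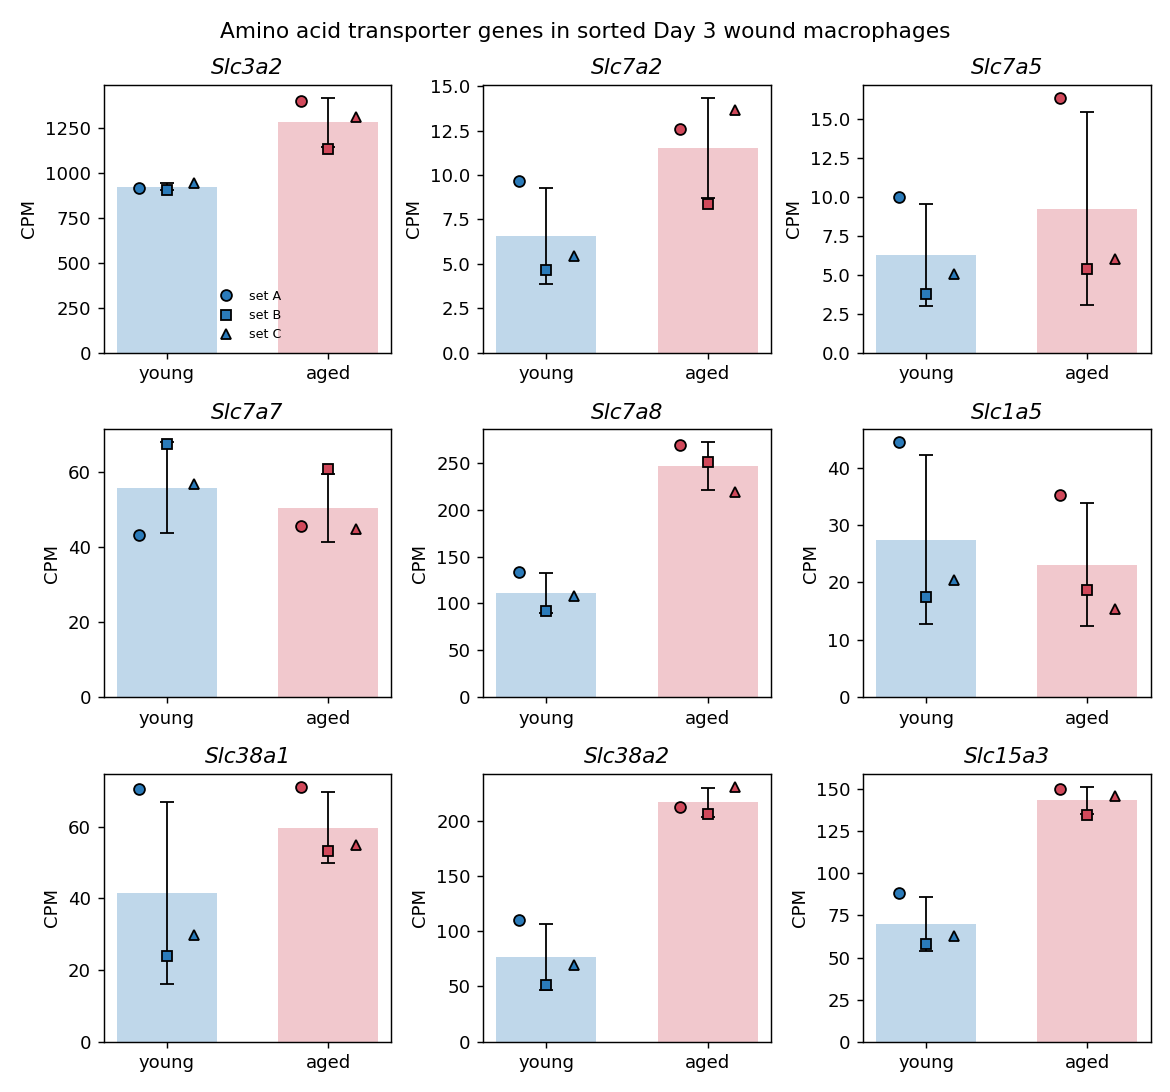
CPM (counts relative to the library total after TMM scaling) of the 9 transporter genes, 1 panel a gene, in young (blue) and aged (red) macrophages. Bars are means, error bars the SD of 3 samples and symbols the sets A, B and C. Slc3a2, Slc7a8, Slc38a2 and Slc15a3 have no aged sample within the young range, and Slc7a5, Slc7a8, Slc1a5, Slc38a1 and Slc15a3 are highest in set A at both ages.

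The libraries held 15270100 to 17927500 expected counts each, and 1 count corresponded to between 0.0553 and 0.0701 CPM. Among the genes of the sort, Fcgr1 and Itgam were present in every sample at 334 CPM or more, Ptprc, which encodes CD45, was at 190 to 308 CPM, and Adgre1, which encodes F4/80, ranged from 172 to 357 CPM and was lower in aged samples (log2 fold change -0.69, edgeR adjusted p = 0.0292). Itgam, which encodes CD11b, was higher in aged samples (log2 fold change 0.99, edgeR adjusted p = 0.00735). Young A stood apart from the other young samples on the first principal component, at -25.7 against -89.6 and -75.6, with aged samples between 59.5 and 67.2. Markers of other cells also varied. Of 12 tested neutrophil markers, 4 were higher and 0 lower in aged macrophages, and their summed level was 717 to 1217 CPM in young and 926 to 1583 CPM in aged samples. Keratinocyte markers summed to 2.25 to 2.49 CPM in young samples and to 12.0, 160 and 8.34 CPM in aged A, B and C. Both that could be tested, Cdh1 and Krt14, were higher in aged samples (edgeR). Cdh1 was at 9.95, 10.4 and 6.67 CPM in aged A, B and C, most of the sum in aged A and C. Krt14 was at 0.771, 80.2 and 0.865 CPM in the same samples, so its level was high in aged B alone. Mast cell markers summed to between 18.8 and 68.3 CPM in the young samples, 53.7 CPM in aged A and at most 1.02 CPM in aged B and aged C. Erythroid markers summed to 153 to 490.1 CPM in young and 41.8 to 152 CPM in aged samples, and 4 of 5 tested were lower in aged samples (edgeR). Endothelial markers summed to 12.0 to 12.7 CPM in young and 25.9 to 31.5 CPM in aged samples, and 1 of 3 tested, Pecam1, was higher (edgeR). Pecam1 made up most of these sums, at 6.80 to 10.1 CPM in young and 24.4 to 28.3 CPM in aged samples. Kdr and Vwf, also tested, had log2 fold changes of -0.40 and -0.38 and did not pass (edgeR). Fibroblast markers summed to 23.7 to 41.8 CPM in young samples and to 13.2, 122 and 36.4 CPM in aged A, B and C, and of 6 tested 0 passed (edgeR). Lymphocyte markers summed to at most 4.87 CPM in any sample. The part of these cells in the values of the transporters was not tested.

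Slc38a2 encodes SNAT2, a sodium-coupled carrier of small neutral amino acids such as glutamine and alanine that cells are known to induce when amino acids are short. It lies on chromosome 15 of mm10 from 96687392 to 96699730 on the minus strand. Its level was 110, 50.9 and 69.5 CPM in young A, B and C and 213, 206 and 231 CPM in aged A, B and C. The aged samples were close to each other and the lowest of them was above the highest young sample, young A. Its log2 fold change of 1.5 (standard error 0.25, 95% interval 0.94 to 2.06, edgeR adjusted p = 0.00738) was the largest of the 9 genes and equals 2.82-fold. Without young C the edgeR adjusted p-value was 0.0546, and it was under 0.05 in the other 5 fits that left out 1 sample.

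Slc38a1 encodes SNAT1, the sister carrier, with a similar range of substrates, and its gene lies next to Slc38a2 on chromosome 15 (96571418 to 96642913, minus strand). Young A held 70.5 CPM of its transcript, about as much as the highest aged sample, while young B held 23.9 and young C 29.7 CPM. The aged samples held 71.1, 53.2 and 54.8 CPM. The groups overlapped only through young A. With all samples the log2 fold change was 0.53 (standard error 0.35, 95% interval -0.24 to 1.29, edgeR adjusted p = 0.306), and without young A it was 1.16 with an edgeR adjusted p of 0.00528. In limma-voom it passed with all samples (0.77, adjusted p = 0.0445). Within each sample Slc38a2 was the more abundant of the pair per length of transcript, and the ratio of Slc38a2 to Slc38a1 was 3.04, 4.16 and 4.56 in young A, B and C and 5.84, 7.56 and 8.23 in the aged samples of the same letters. All aged ratios lay above all young ratios. This ratio was chosen after the values were seen and is given without a test.

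Slc1a5 encodes ASCT2, a sodium-dependent exchanger through which many dividing cells take up glutamine (chromosome 7, 16781340 to 16798274, plus strand). It was measured at 44.4, 17.5 and 20.4 CPM in young A, B and C and at 35.2, 18.7 and 15.3 CPM in aged A, B and C. In each age the sample of set A was more than 2-fold above the mean of the other samples, 2.34-fold in young and 2.07-fold in aged, and the ages overlapped. The log2 fold change was -0.25 (standard error 0.38, 95% interval -1.10 to 0.60, edgeR adjusted p = 0.673), an interval that holds a change of 2-fold downwards. Its sign turned to 0.29 without young A.

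Slc3a2, the CD98 heavy chain, was by far the most abundant transcript of the 9 (chromosome 19, 8706882 to 8723369, minus strand). It stood at 919, 909 and 945 CPM in young A, B and C and at 1404, 1135 and 1313 CPM in aged A, B and C. The young samples lay close together, and all aged samples exceeded them. The log2 fold change was 0.47 (standard error 0.17, 95% interval 0.10 to 0.85), a 1.39-fold difference that did not pass in the edgeR test (adjusted p = 0.0739) and passed in DESeq2 (adjusted p = 0.0233) and in limma-voom (adjusted p = 0.0275). An exact two-sided permutation test on 3 against 3 samples gives p = 0.1 at best, which is the value here and in the other 3 genes with separated groups.

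Slc7a8 encodes LAT2, a light chain of CD98 that exchanges neutral amino acids of many sizes (chromosome 14, 54722209 to 54781946, minus strand). Its level was 134, 91.9 and 108 CPM in young A, B and C. The aged samples reached 269, 251 and 218 CPM, all well above the young range. The log2 fold change was 1.15 (standard error 0.18, 95% interval 0.74 to 1.56, edgeR adjusted p = 0.00627), or 2.21-fold. It was the one member whose edgeR adjusted p-value was under 0.05 in all 6 fits that left out 1 sample, between 0.00248 and 0.0497.

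Slc7a7 encodes y+LAT1, the CD98 light chain that exports cationic amino acids such as arginine in exchange for neutral ones, and whose loss in humans causes lysinuric protein intolerance with disturbed macrophages. Its gene lies near Slc7a8 on chromosome 14 (54369442 to 54417780, minus strand). Its level was 43.3, 67.4 and 56.7 CPM in young A, B and C and 45.6, 60.8 and 44.8 CPM in aged A, B and C. The groups overlapped across nearly their whole range. The log2 fold change was -0.15 (standard error 0.20, 95% interval -0.60 to 0.30, edgeR adjusted p = 0.644), so the interval leaves out a 2-fold change in either direction. Some of its exon bases are shared with Oxa1l, and how the counting divided such reads is not stated. Oxa1l itself was at 10.1 to 17.8 CPM.

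Slc7a5 encodes LAT1, the light chain known for leucine uptake in activated and dividing cells (chromosome 8, 121881150 to 121907694, minus strand). It was scarce in these macrophages, at 10.0, 3.75 and 5.09 CPM in young A, B and C and 16.4, 5.35 and 5.99 CPM in aged A, B and C. As for Slc1a5, the sample of set A was the highest at each age, 2.26-fold above the mean of the others in young and 2.89-fold in aged. At a log2 fold change of 0.55 (standard error 0.47, 95% interval -0.49 to 1.59, edgeR adjusted p = 0.439) no difference between the ages was detectable. Without aged A the log2 fold change was -0.15.

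**Figure D2:**
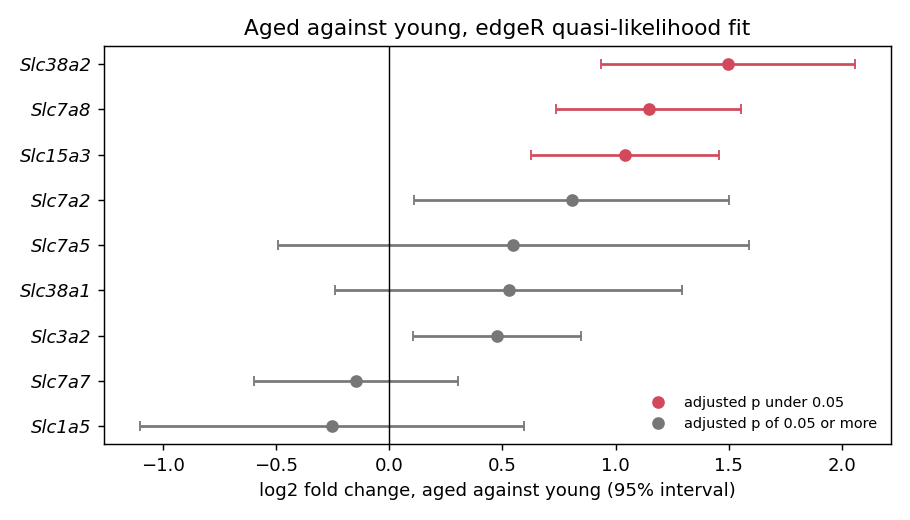
Log2 fold change of aged against young macrophages for the 9 transporter genes, ordered by size, with the 95% interval of the edgeR fit to 3 samples an age. Slc38a2 (1.5), Slc7a8 (1.15) and Slc15a3 (1.04) are the 3 genes with an adjusted p-value under 0.05, and the intervals of Slc7a5, Slc38a1, Slc7a7 and Slc1a5 span 0.

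Slc7a2 encodes CAT2, an arginine carrier that needs no heavy chain and is known to supply nitric oxide synthase in activated macrophages (chromosome 8, 40862396 to 40922308, plus strand). Counts at the gene do not separate its splice forms, which differ in their affinity for arginine. Its level was 9.68, 4.63 and 5.42 CPM in young A, B and C and 12.6, 8.34 and 13.7 CPM in aged A, B and C. The groups overlapped because young A was above aged B. The log2 fold change of 0.81 (standard error 0.31, 95% interval 0.11 to 1.5) did not pass (edgeR adjusted p = 0.0980). It was 1.20 without young A (edgeR adjusted p = 0.0176), and with all samples it passed in limma-voom (1.01, adjusted p = 0.0184).

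Slc15a3 encodes PHT2, a proton-coupled carrier that moves histidine and small peptides, including fragments of bacterial wall, out of endosomes and lysosomes (chromosome 19, 10839727 to 10859362, plus strand). It was at 88.2, 58.1 and 63.0 CPM in young A, B and C. In aged A, B and C it was at 150, 135 and 146 CPM, a narrow range above all young samples. The log2 fold change was 1.04 (standard error 0.19, 95% interval 0.62 to 1.46, edgeR adjusted p = 0.00884), or 2.06-fold, and without young C the edgeR adjusted p-value was 0.0627. Its last exon bases overlap those of Tmem132a on the other strand. Whether strand was used is not stated, so how reads of the shared stretch were assigned is not known. Tmem132a was at 4.56 to 10.2 CPM in young and 13.1 to 15.5 CPM in aged samples. Slc15a4, which encodes the related lysosomal carrier PHT1, did not pass (45.3, 57.8 and 67.0 CPM in young and 38.0, 70.1 and 63.2 CPM in aged A, B and C, log2 fold change 0.01, 95% interval -0.52 to 0.54, edgeR adjusted p = 0.982).

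The sample of set A was the highest of its age in 7 of the 9 genes in young and in 6 of the 9 in aged macrophages, and in 5 genes, Slc7a5, Slc7a8, Slc1a5, Slc38a1 and Slc15a3, at both ages. Over all tested genes set A was highest in 36.7% in young, in 36.8% in aged and in 15.2% at both ages. The summed level of dendritic cell markers was also highest in set A. It was 57.0, 25.4 and 18.3 CPM in young A, B and C and 94.8, 32.4 and 41.8 CPM in aged A, B and C. That sum covers 8 of the 9 markers listed, of which 6 had enough counts to be tested and 0 passed as higher or lower in aged macrophages (edgeR). Xcr1 (19.2, 0.528 and 1.85 CPM in young and 34.5, 4.65 and 11.9 CPM in aged A, B and C), Ccr7 and Cd209a were highest in set A at both ages. Cd209a was only just so, at 14.6 CPM in young A against 14.3 in young B and at 8.13 CPM in aged A against 8.02 in aged B. The other markers in the sum were not highest in set A at both ages. Flt3 and Zbtb46 were highest in young C and aged A, and Batf3 in young B and aged C. Siglech was highest in young A and aged B, and Itgae in young A and aged C. The mast cell sum was highest in set A as well, and Cpa3 and Mcpt4, which define mast cells, were at 0 counts in aged B and aged C. The part of dendritic and mast cells in the set A values of the transporters was not tested.

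**Figure D3:**
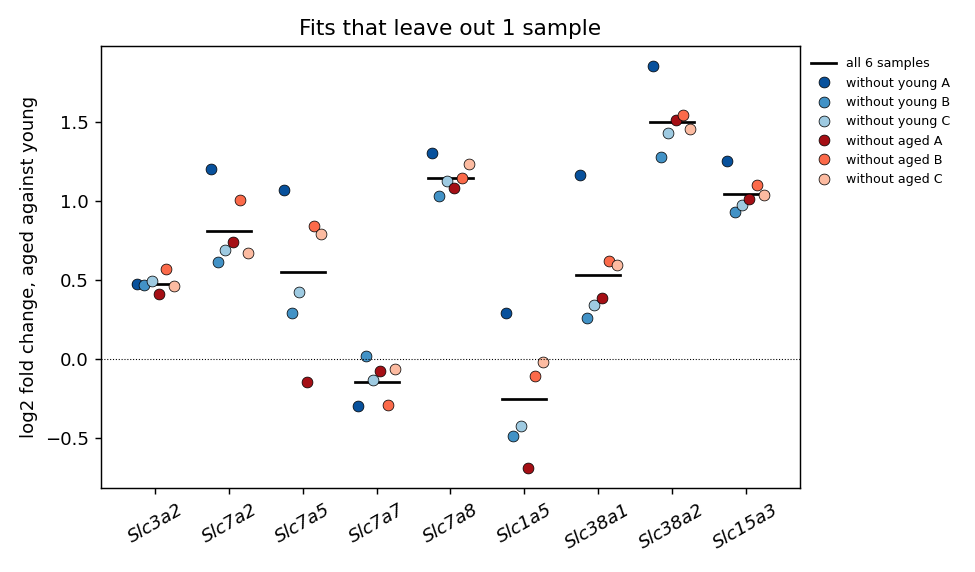
Log2 fold change of each transporter gene in the edgeR fit of all 6 samples (black line) and after leaving out 1 sample at a time (points, blue for a young and red for an aged sample left out). Leaving out young A raised the value of Slc7a2, Slc7a5, Slc1a5, Slc38a1, Slc38a2, Slc7a8 and Slc15a3, lowered that of Slc7a7 to -0.30 and left Slc3a2 at 0.47.

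Levels of different genes were compared per length, as TPM (counts divided by the merged exon length of the gene and scaled to a fixed total). In young macrophages Slc3a2 was at 633 ± 32.5 TPM (SD, n = 3), followed by Slc7a8 at 53.9 ± 11.9, Slc7a7 at 40.6 ± 9.15, Slc15a3 at 30.9 ± 8.5, Slc38a2 at 21.1 ± 9.12 and Slc1a5 at 16.1 ± 9.40 TPM. Slc38a1 at 5.89 ± 3.88, Slc7a5 at 4.14 ± 2.35 and Slc7a2 at 1.76 ± 0.803 TPM were the lowest. From Slc7a8 down to Slc1a5 each gene overlapped the next over the young samples, as did the 3 lowest genes in their order. In aged macrophages Slc3a2 was at 825 ± 61.1 TPM and Slc7a8 at 112 ± 14.7, followed by Slc15a3 at 59.3 ± 1.73, Slc38a2 at 55.7 ± 1.53 and Slc7a7 at 34.8 ± 8.03 TPM. Slc38a2 stood below Slc7a7 in every young sample and above it in every aged sample. Below these, Slc1a5 (12.6 ± 5.69), Slc38a1 (7.86 ± 1.22) and Slc7a5 (5.63 ± 3.70) overlapped each with the next, and Slc7a2 (2.85 ± 0.572 TPM) was again the lowest. With the longest coding transcript as the length instead, Slc15a3 ranked above both Slc7a8 and Slc7a7 at both ages, so its place among these genes rests on the length used, while the mean of Slc38a2 again ranked below Slc7a7 in young and above it in aged samples.

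The light chains that share the CD98 heavy chain were compared within each sample as shares of their summed TPM over Slc7a5, Slc7a6, Slc7a7, Slc7a8 and Slc7a11. Slc7a10 was not among the 15168 genes with deposited counts. Slc7a7 held 26.4%, 46.0% and 37.1% of the sum in young A, B and C and 13.3%, 20.4% and 16.8% in aged A, B and C. Its share was lower in every aged sample while its own level did not pass the test of age. Slc7a11, which encodes the cystine importer xCT, went the other way, from 10.5%, 8.25% and 9.05% to 29.1%, 20.5% and 24.2%. The share of Slc7a8 stayed the largest in 5 of the 6 samples, at 47.5 ± 6.28% in young and 53.9 ± 1.95% in aged macrophages (SD, n = 3), and only in young B did Slc7a7 exceed it. Slc7a5 and Slc7a6 held 1.57% to 5.47% each. Slc7a8 was 2.05, 0.903 and 1.27 times as abundant as Slc7a7 in young A, B and C and 3.91, 2.74 and 3.23 times in aged A, B and C. The heavy chain exceeded the 5 light chains together in every sample, 5.27, 5.83 and 5.82 times in young A, B and C and 3.84, 3.57 and 4.62 times in aged A, B and C. These shares and ratios were chosen after the values were seen and carry no test, and a share can fall because others rise.

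**Figure D4:**
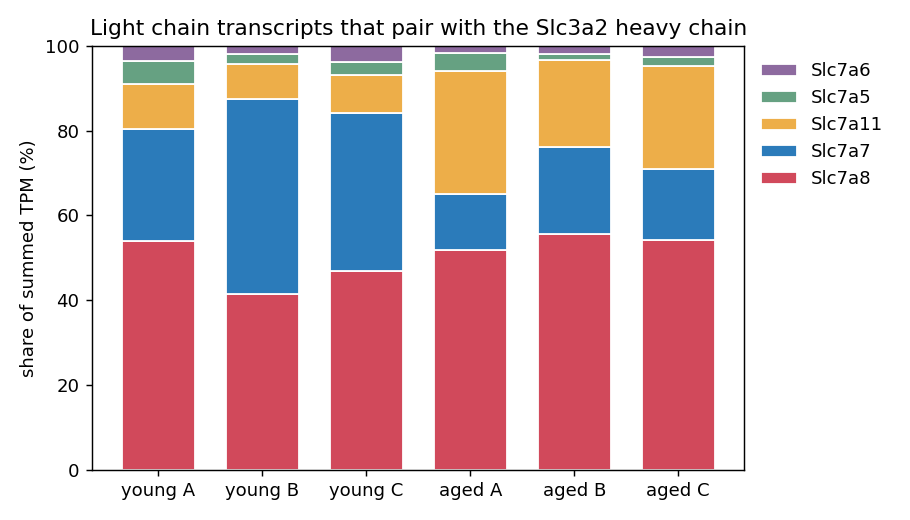
Share of each CD98 light chain transcript in the summed TPM of 5 light chains, 1 bar a sample. The share of Slc7a7 lies between 26.4% and 46.0% in young and between 13.3% and 20.4% in aged samples, and that of Slc7a11 between 8.25% and 10.5% and between 20.5% and 29.1%.

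Of 43 gene symbols listed as other amino acid transporters, older and newer names included, 22 could be tested, of which 3 rose and 1 fell in aged macrophages. Their median log2 fold change was 0.16, and when 1 sample was left out 1 to 4 rose, the lowest count being without young C or aged C. Over all tested genes 151 of 12219 rose without young C and 351 of 12245 without aged C. The median of the list was 0.07 without aged A, 0.08 without young B and 0.27 without young A. The rises were in Slc7a11 (2.39, standard error 0.23, edgeR adjusted p = 0.00127), in Slc6a12, a betaine carrier (1.55, edgeR adjusted p = 0.0377), and in Slc16a10, an exporter of aromatic amino acids (0.97, edgeR adjusted p = 0.0200). Slc7a11 was at 71.9, 50.7 and 58.0 CPM in young A, B and C and at 420, 257 and 271 CPM in aged A, B and C, a larger rise than in any of the 9 genes. The fall was in Mfsd12, a lysosomal cysteine carrier (-1.05, edgeR adjusted p = 0.0194), a call lost without young C or aged C. Slc7a1, the widely expressed arginine carrier CAT1, was at 16.9, 3.64 and 6.47 CPM in young and 19.1, 13.5 and 9.45 CPM in aged A, B and C and did not pass (log2 fold change 0.63, edgeR adjusted p = 0.374). Slc7a6, the other y+L light chain, was at 3.87 to 8.12 CPM in young and 7.39 to 10.0 CPM in aged samples (log2 fold change 0.31, edgeR adjusted p = 0.503). Of 10 tested carriers of amino acids into mitochondria, 0 rose (edgeR, 0 also at an unadjusted p-value under 0.05) and 1 fell, the serine carrier Sfxn1 (-0.80, edgeR adjusted p = 0.0199), a call lost without young B, young C or aged C.

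Genes of the ATF4 response to amino acid shortage were compared next, since several transporters belong to it. Of 21 tested, 6 rose and 1 fell, with a median log2 fold change of 0.45. Without young C 3 rose, in a fit in which 151 of 12219 genes rose. Without young B the median of the list was 0.23. Chac1, which breaks down glutathione, was at 1.11, 0.821 and 2.51 CPM in young A, B and C and at 6.94, 22.8 and 16.0 CPM in aged A, B and C (edgeR log2 fold change 3.38, standard error 0.50, adjusted p = 0.00436). Trib3, a feedback inhibitor of the response (2.24, edgeR adjusted p = 0.00436), Asns, asparagine synthetase (1.99, edgeR adjusted p = 0.0117), and Mthfd2 of the mitochondrial folate cycle (1.25, edgeR adjusted p = 0.0114) rose as well. In Chac1, Trib3, Asns and Mthfd2 aged A was the lowest aged sample. Shmt2, a serine hydroxymethyltransferase, fell (-0.89, edgeR adjusted p = 0.0235), a call lost without young C or aged C. Atf4 itself was at 446 to 571 CPM in young and 616 to 731 CPM in aged samples (log2 fold change 0.45, edgeR adjusted p = 0.0930, gene chosen after its values were seen).

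Promoter sequence was read for 4 of the 9 members, Slc3a2, Slc7a7, Slc7a8 and Slc38a2, from the RefSeq table of promoters on GRCm38.p6. Each promoter runs from 250 bases before to 50 bases after a transcript start, and Slc7a7 has 5 of them. They were searched on both strands for the ATF4 response core TGATGNAA, the E-box CACGTG, the STAT motif TTCNNNGAA and the interferon response core, which 3.97%, 7.15%, 8.3% and 3.44% of 32851 promoters hold. None of the 4 motifs was in the window of Slc3a2, Slc7a8 or Slc38a2, and bases outside the windows were not searched. For Slc3a2 the 250 bases before the start (8713898 to 8714147) lie inside the gene, whose annotated beginning on the minus strand is at 8723369. Slc7a7, which did not pass the test, held the ATF4 core in 2 of its 5 promoters, which overlap and share 1 of the matches. Slc7a11 held it on each strand. The 250 bases before the start are shown for the 2 members of these 4 that rose and for Slc7a7, and 100 bases for Slc7a11, in lower case with matches to the ATF4 core in capitals. All 4 lie on the minus strand and are printed in the direction of transcription, and the T in capitals at the end of the Slc7a7 line begins a match that crosses the start. A match is a description of letters and not a site.
Slc7a8, chr14:54781887-54782136: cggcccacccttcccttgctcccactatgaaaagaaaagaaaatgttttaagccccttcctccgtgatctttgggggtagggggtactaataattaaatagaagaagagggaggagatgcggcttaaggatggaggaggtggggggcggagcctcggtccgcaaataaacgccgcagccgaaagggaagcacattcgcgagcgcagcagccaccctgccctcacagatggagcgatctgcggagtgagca
Slc38a2, chr15:96699729-96699978: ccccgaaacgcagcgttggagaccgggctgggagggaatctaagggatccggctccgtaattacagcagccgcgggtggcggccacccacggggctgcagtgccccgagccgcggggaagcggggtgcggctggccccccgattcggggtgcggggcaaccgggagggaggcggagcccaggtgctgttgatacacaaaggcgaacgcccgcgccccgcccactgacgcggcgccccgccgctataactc
Slc7a7, chr14:54417945-54418194: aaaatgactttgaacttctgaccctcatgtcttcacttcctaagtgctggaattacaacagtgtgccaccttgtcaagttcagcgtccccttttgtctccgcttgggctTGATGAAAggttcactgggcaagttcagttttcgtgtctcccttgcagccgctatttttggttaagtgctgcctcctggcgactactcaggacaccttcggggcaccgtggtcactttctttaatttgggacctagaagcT
Slc7a11, chr3:50443614-50443713: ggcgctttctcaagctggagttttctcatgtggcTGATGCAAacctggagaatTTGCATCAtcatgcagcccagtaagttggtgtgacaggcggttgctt

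Genes that use the arginine brought in by Slc7a2 and Slc7a1 were compared as a list of enzymes of arginine and polyamine metabolism. Of 18 tested, 5 rose and 1 fell, with a median log2 fold change of 0.25, and without young B, young C or aged C the number that rose was 3, 1 and 2. Over all tested genes 435, 151 and 351 rose in these fits, against 1156 with all samples. Without aged A the median of the list was 0.08, and without young B 0.15. Nos2, the inducible nitric oxide synthase, rose by 1.33 on the log2 scale (edgeR adjusted p = 0.0186), Smox, which oxidises spermine, by 1.28 (edgeR adjusted p = 0.0120) and Odc1, the first enzyme of polyamine synthesis, by 1.12 (edgeR adjusted p = 0.0202). Gamt, of creatine synthesis, fell (-1.29, edgeR adjusted p = 0.0122), a call lost without young C or aged C.

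Among 18 tested enzymes that use glutamine, leucine and related amino acids, 1 rose and 2 fell, with a median log2 fold change of -0.03. Gfpt1, which takes glutamine into hexosamine synthesis, rose (1.12, edgeR adjusted p = 0.0349). Gpt, an alanine transaminase (-1.52, edgeR adjusted p = 0.0343), and Bckdk, the kinase that restrains branched-chain amino acid breakdown (-0.70, edgeR adjusted p = 0.0218), fell. Of 37 tested genes of amino acid sensing and mTORC1, 2 rose and 3 fell, and the median was 0.04. Without young B, young C or aged C 0 genes of either list passed (edgeR). Over all tested genes 435 of 12169, 151 of 12219 and 351 of 12245 passed as higher in these fits, and 330, 67 and 194 as lower. Without aged A 2 enzymes rose and 1 fell, and 1 sensing gene rose and 0 fell, and without aged B 0 enzymes passed and 1 sensing gene rose and 0 fell. Of the 6 fits without 1 sample, only that without young A had falls among the sensing genes, and in it 4 enzymes rose and 3 fell, and 7 sensing genes rose and 8 fell. In that fit 1574 of 12138 genes rose and 1128 fell over the whole table. The medians of both lists changed sign between the 6 fits. Fnip1, a partner of folliculin (0.94, edgeR adjusted p = 0.0206), and Castor2, of the arginine sensor family (0.76, edgeR adjusted p = 0.0385), rose. Sesn1, of the leucine-sensing sestrins (-1.80, edgeR adjusted p = 0.0281), Tbc1d7, a subunit of the TSC complex (-0.98, edgeR adjusted p = 0.0357), and Lamtor2, of the lysosomal Ragulator (-0.55, edgeR adjusted p = 0.0331), fell. Another sestrin, Sesn2, listed with the ATF4 genes and chosen with its values known, rose (0.74, edgeR adjusted p = 0.0269).

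**Figure D5:**
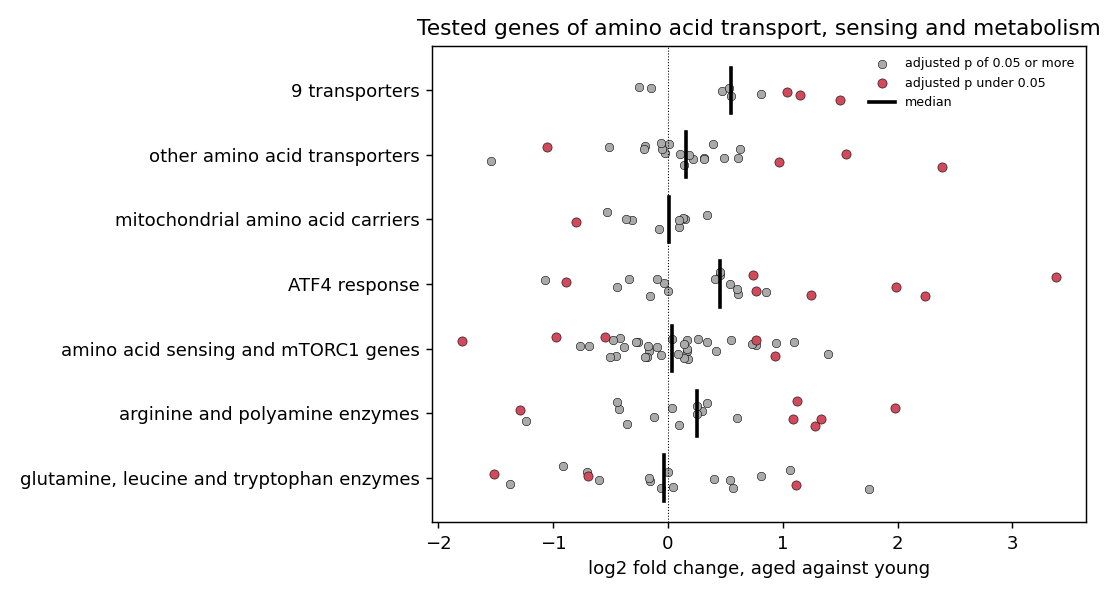
Log2 fold change of aged against young macrophages for each tested gene of 7 groups, 1 point a gene, in red where the edgeR adjusted p-value was under 0.05, with the median of each group as a black line. The medians are 0.55 for the 9 transporters and 0.45 for the ATF4 response genes, an order that turned without young C (0.49 and 0.56), and between -0.03 and 0.25 for the other groups.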

How the data were processed

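RNA of sorted Day 3 wound macrophages was sequenced in 3 young and 3 aged samples. Per the methods and the submitters' processing notes, the authors aligned reads with STAR 2.7.3a to mm10 and quantified them on Ensembl transcripts release 102 in Partek Flow. They deposited expected counts without normalisation for genes with a total of at least 10, and whether strand was used is not stated. A second deposited table, with the authors' normalised values and their DESeq2 comparison (p-values and fold changes), was not used here, and no other column was left out. The end given in the table is 1 base past the annotated end and was corrected.

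Expected counts (30.7% to 34.0% not whole in a sample) were rounded and tested in R 4.3.3 with edgeR 4.0.16: TMM scaling, filterByExpr, and quasi-likelihood F tests for age without a block, adjusted over 11878 genes. Standard errors are the log2 fold change divided by the root of the F statistic. The fit was tested on simulated data. The design named counts, and expected counts were handled as that unit needs. Alternatives were DESeq2 1.42.0, limma-voom (limma 3.58.1), DESeq2 size factors, other filters, the set letter as a block, a 2-fold threshold and leaving out each sample. The transcript length was added after seeing the data. The biological coefficient of variation was 0.239. Replicates of an age differed by more than counting noise and were all kept.

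Exon lengths came from GENCODE M21, matched by symbol to 98.3% of tested genes. Plots were made with Python 3.11.15 and matplotlib 3.10.9. The members and lists were chosen with earlier results of these data known. Named genes were all members, up to 4 rises and 4 falls past the test in each list, genes of the sort, and Slc7a1, Slc7a6 and Slc7a11. Genes outside this rule are said to be chosen with their values known, or are named as markers, overlapping genes or the related carrier Slc15a4. Protein sequences were not used here, and 1 gene that this rule names is not reported here.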

Additional observations from a re-analysis of the deposited data

How the results depend on the processing

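Slc7a8 kept its direction and its call in all 12 alternatives, and Slc38a2 and Slc15a3 in 11 of 12. Without young C both missed the threshold, at a log2 fold change of 1.43 and 0.97, and over the fits without 1 sample they ranged from 1.28 to 1.85 and from 0.93 to 1.25. Slc3a2 passed in DESeq2 (0.49) and limma-voom (0.46). Slc7a2 passed in limma-voom (1.01) and without young A, with a range of 0.61 to 1.20 when 1 sample was left out, and Slc38a1 likewise (0.77, range 0.26 to 1.16). The sign turned in Slc7a5 without aged A (-0.15, range -0.15 to 1.07), in Slc7a7 without young B (0.019, range -0.30 to 0.019) and in Slc1a5 without young A (0.29, range -0.69 to 0.29), 3 genes that passed in no alternative. The number of transporters that rose was 6 in limma-voom and 1 to 5 without 1 sample, and their median was 0.41 to 1.16. The cause of these changes was not tested, and fits without 1 sample rest on fewer samples.

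Counts in the lists moved as follows when 1 sample was left out. Other amino acid transporters had 1 to 4 higher and 0 to 1 lower, mitochondrial carriers 0 to 1 lower, ATF4 response genes 3 to 7 higher and 0 to 2 lower, sensing genes 0 to 7 higher and 0 to 8 lower, arginine and polyamine enzymes 1 to 6 higher and 0 to 2 lower, and enzymes of glutamine and leucine 0 to 4 higher and 0 to 3 lower. DESeq2 called 2 ATF4 genes lower, 5 sensing genes higher, 2 arginine enzymes lower and 4 glutamine and leucine enzymes higher. In limma-voom the same counts were 3, 7, 3 and 6, with 7 sensing genes and 5 glutamine and leucine enzymes lower. Over the whole table DESeq2 called 1474 of 11912 genes higher and 1091 lower, and limma-voom 1933 of 11878 higher and 1713 lower. A minimum of 10 counts in every sample gave 2 arginine enzymes lower. With a change of more than 2-fold also required, 0 mitochondrial carriers and 0 ATF4 genes were lower, 0 sensing genes higher and 1 lower, and 1 glutamine and leucine enzyme lower.

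Whether the set letters pair the samples is not known, since the labels do not say what a set shares. Correlations between 3 samples an age cannot settle it. The deviations of young and aged samples with the same letter correlated at 0.181 in A, -0.0206 in B and 0.114 in C. Young B and aged B each correlated better with another letter. With the set as a block, 1202 genes rose and 912 fell against 1156 and 947, the same 3 transporters passed, 2 other transporters were lower and 4 sensing genes higher, and no other list count moved beyond 1.5 times.

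Over all tested genes the number higher in aged macrophages was 151 to 1574 without 1 sample, lowest without young C, and 1933 in limma-voom. The number lower was 67 to 1128 without 1 sample, again lowest without young C, and 1713 in limma-voom. The fewest counts of a transporter in any sample were 64, of Slc7a5 in young B.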
